A study of Mus musculus with 8 samples.

Results

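Integrins are described here through 10 genes, Itga4, Itga5, Itga6, Itga7, Itga8, Itga9, Itgav, Itgb1, Itgb5 and Itgb8, out of 47729 genes in the neural stem cell (NSC) table and 40562 genes in the astrocyte table. The 10 were picked by name, as the subunits of neural cells, with the measured values of both genotype comparisons already known. Their differences between genotypes were thus selected on these data and are given as a description. No p is given for a member, and whether a member passed the threshold used for all genes is stated only to place it beside the share of all genes that did. Each symbol matched 1 gene identifier in both tables, and all 10 passed the filter on low counts in NSCs and in astrocytes. A further 16 integrin subunit genes were kept as the other subunits of the family.

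The 8 libraries came from C57BL/6 mice, with an age of 10 weeks on the labels. The mutant groups, called S89G-DMP1, carry a knock-in point mutation that replaces serine 89 of dentin matrix protein 1 (DMP1) with glycine and so takes away the attachment site of its glycosaminoglycan chain. The mutant line was built in C57BL/6J embryonic stem cells, the Neo cassette was removed by a cross with an FLP deleter strain, and homozygotes were used, with wild type (WT) C57BL/6 mice as controls. NSCs of the sub-ventricular zone were grown as neurospheres and gave 3 WT and 3 S89G-DMP1 libraries. Astrocytes cultured from cortex in medium with fetal bovine serum gave 1 WT and 1 S89G-DMP1 library. The sources do not say whether the 3 NSC libraries of a genotype are separate mice or cultures, so their errors and p-values measure only the spread between these samples, which may be technical.

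Every integrin is a pair of 1 alpha and 1 beta chain that spans the cell membrane, binds matrix outside and holds the actin cytoskeleton inside through talin, kindlin and other adaptors. The pair sets the ligand. Chains α5, α8 and αv read the Arg-Gly-Asp (RGD) motif of fibronectin, vitronectin, nephronectin and osteopontin, α6 and α7 bind laminin, and α4 and α9 bind VCAM1, osteopontin or tenascin-C. The β1 chain partners most alpha chains, whereas β5 and β8 pair with αv, and αvβ8 on neural cells is known for releasing TGF-β from its latent complex. In the germinal zone around the ventricle, neural progenitors touch laminin-rich vessels and basement membrane through α6β1. DMP1 is itself a matrix protein with an RGD motif.

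Among the members, Itga4, Itga9 and Itga8 had the largest falls in S89G-DMP1 NSCs, and Itgav stayed near its WT level in both cell types. The promoter windows of Itga4, Itga8 and Itgav, 3 genes of chromosome 2, are shown so that the start regions of 2 reduced genes can be read beside one that was not. They run from 250 bases before to 50 bases after the RefSeq start, on GRCm38.p6. Itga4 lies at chr2:79255176-79255475 on the plus strand, Itga8 at chr2:12301895-12302194 on the minus strand, and Itgav at chr2:83724147-83724446 on the plus strand. Capitals mark a GC box, searched as GGGCGG on both strands.
Itga4: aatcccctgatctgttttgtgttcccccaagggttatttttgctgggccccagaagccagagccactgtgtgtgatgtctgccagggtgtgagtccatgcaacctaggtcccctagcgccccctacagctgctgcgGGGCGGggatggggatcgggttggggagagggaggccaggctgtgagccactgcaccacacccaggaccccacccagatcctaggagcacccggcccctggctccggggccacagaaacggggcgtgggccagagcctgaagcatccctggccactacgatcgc
Itga8: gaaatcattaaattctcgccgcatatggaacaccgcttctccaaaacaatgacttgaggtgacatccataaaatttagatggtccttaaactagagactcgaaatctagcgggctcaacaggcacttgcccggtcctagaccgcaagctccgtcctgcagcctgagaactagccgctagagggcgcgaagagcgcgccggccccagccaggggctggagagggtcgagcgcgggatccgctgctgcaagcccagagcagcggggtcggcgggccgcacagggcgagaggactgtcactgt
Itgav: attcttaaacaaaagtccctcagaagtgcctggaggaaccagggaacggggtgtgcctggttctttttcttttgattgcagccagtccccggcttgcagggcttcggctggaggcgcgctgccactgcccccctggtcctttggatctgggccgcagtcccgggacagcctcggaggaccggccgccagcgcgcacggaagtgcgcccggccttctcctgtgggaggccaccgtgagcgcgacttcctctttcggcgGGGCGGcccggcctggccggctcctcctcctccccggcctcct
The Itga4 and Itgav windows each hold 1 GC box and the Itga8 window holds 0. Of 32851 RefSeq promoters of the same length, 35.7% hold 1 or more. Their GC content was 64.3%, 59% and 67.3% for Itga4, Itga8 and Itgav, against a median of 52.7% over all promoters. No TATAAA and no CACGTG, each searched on both strands, lay in any of the 3 windows, and these letters occur in 13.6% and 7.15% of all promoters. The RefSeq window of Itga9 lies inside the gene as GENCODE M21 draws it (chr9:118606690-118901003), so it is not printed. In that annotation the whole genes span chr2:79255426-79333123 for Itga4, chr2:12106632-12301922 for Itga8 and chr2:83724397-83806916 for Itgav.

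The NSC libraries held 2354615 to 2588130 counted reads and the astrocyte libraries 14008670 (WT) and 13016924 (S89G-DMP1). Levels are CPM, counts divided by the library's total and scaled by TMM factors within each table, and the tables were made with different tools, so values are set side by side across cell types and never tested. Pairs of NSC libraries of 1 genotype differed little beyond counting noise (mean chi-square over 11136 genes 1.07 to 1.51, about 1 for counting noise alone), and pairs across genotypes more so (3.17 to 4.06). Every NSC library held both Xist (2718 to 3001 counts) and the Y-linked Ddx3y (45 to 77 counts). NSC libraries also held the progenitor genes Sox2 (319 CPM in WT, 342 in S89G-DMP1) and Nes (2083 and 1933 CPM). The library labelled WT astrocyte went against its label in part, with 90 counts of Gfap, 8 of Aqp4 and 8 of Slc1a3. The S89G-DMP1 astrocyte library had 901, 4051 and 3877 of these. The astrocyte markers Glul (4247 and 3709 counts in WT and S89G-DMP1) and S100b (64 and 30) went the other way. Gja1 (1165 and 1913) was within 2-fold. The WT astrocyte library held 12172 Xist and 0 Ddx3y counts, and the S89G-DMP1 astrocyte library 74 and 1277, so genotype and sex cannot be told apart there. Counts of Dmp1, whose coding change does not delete its transcript, were 18, 21 and 16 in WT NSCs, 6, 3 and 5 in S89G-DMP1 NSCs, and 2 and 119 in the WT and S89G-DMP1 astrocyte libraries.

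In S89G-DMP1 NSCs, 5 of the 10 integrin genes passed as lower and 0 as higher in edgeR's quasi-likelihood test at an adjusted p under 0.05. The 5 were Itga4, Itga7, Itga8, Itga9 and Itgb1. Over all 11194 tested genes 8.76% were called lower and 7.08% higher. Because the members were chosen with this contrast known, nothing is read from that count. Log2 fold changes were negative for 8 members and positive for 2, with a median of -0.24 against 0.00 over all tested genes. For 6 members all S89G-DMP1 libraries lay below all WT libraries, an order found in 16% of tested genes, and for 0 members all lay above, an order found in 14.8%. Genes on the other strand that share exon bases with members, Cerkl with Itga4 (1124 bases) and Gm13684 with Itgav (634 bases), had at most 2 counts in any NSC library. In bulk RNA, fewer cells of a type and less RNA per cell cannot be told apart.

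**Figure D1:**
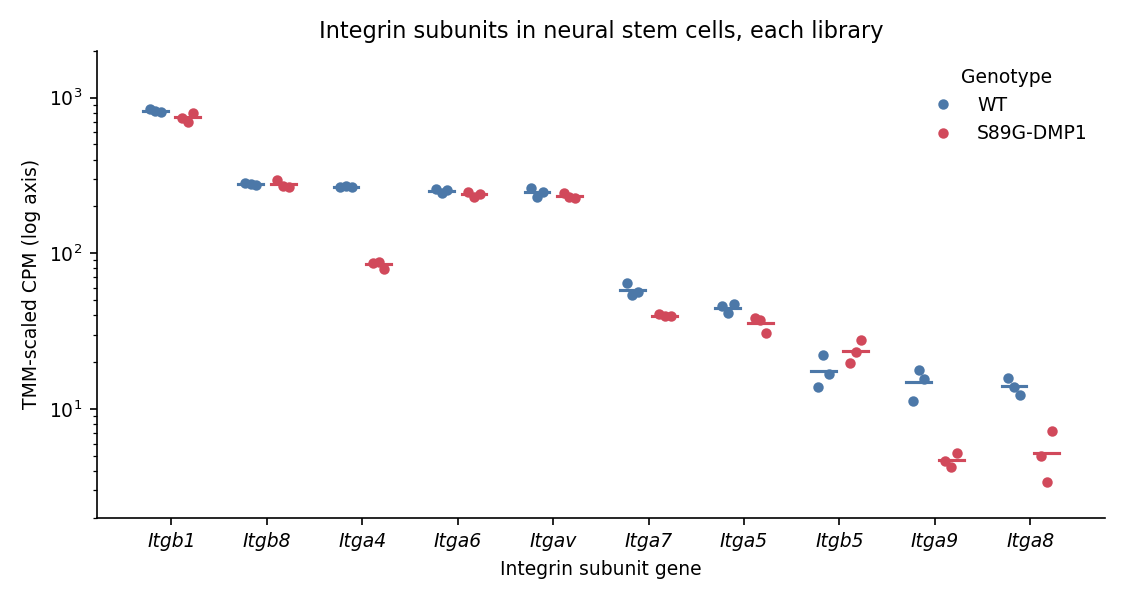
TMM-scaled CPM (log axis) of the 10 integrin genes in each NSC library, with WT in blue, S89G-DMP1 in red and a bar at each group mean. Itga4 drops from 268 to 84.8 CPM and the low genes Itga9 and Itga8 drop beside it, while Itga6, Itgav and Itgb8 overlap between genotypes.

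The α4 and α9 chains, which share VCAM1 and osteopontin as ligands, had the largest falls. Itga4 was at 636, 701 and 673 counts in the WT libraries and at 208, 206 and 200 counts in the S89G-DMP1 libraries. The 6 values form 2 tight clusters, far apart. Mean CPM were 268 ± 2.27 (SD, n = 3) and 84.8 ± 4.40 (SD, n = 3), a log2 fold change of -1.66 ± 0.07 (SE). Itga9 had 27, 46 and 39 counts in WT and 11, 10 and 13 in S89G-DMP1, or 14.8 ± 3.27 and 4.68 ± 0.469 CPM (SD, n = 3 each). Its log2 fold change was also -1.66, with a wider SE of 0.26 that goes with its low counts, and the groups did not overlap.

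Of the RGD-binding alpha chains, Itga8 fell, Itga5 was lower without a call and Itgav hardly moved. Itga8, the receptor chain for nephronectin, had 38, 36 and 31 counts in WT and 12, 8 and 18 in S89G-DMP1, a log2 fold change of -1.41 ± 0.26 (SE) with no overlap. Its change ranged from -1.72 to -1.19 over 11 alternative fits and could not be fitted under a minimum of 10 counts in every library, since 1 library had 8. Itga5, the fibronectin receptor chain, had CPM values of 45.6, 41.3 and 47.2 in WT NSCs and 38.5, 37.4 and 30.7 in mutant NSCs. The Itga5 groups did not overlap, but the difference of -0.33 ± 0.12 (SE, log2) was not called. It was called without WT replicate 2 (log2 fold change -0.39). Itgav, the partner of β5 and β8, had CPM values of 262.9, 230.4 and 247.9 in WT NSCs and 242.7, 229.2 and 226 in mutant NSCs, and its groups overlapped (-0.09 ± 0.06, log2 fold change and SE).

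The laminin receptor chains parted. Itga6, the chain by which neural stem cells are often sorted, read 260.4, 245.4 and 253.5 CPM in the WT group and 247.3, 230.9 and 241.1 CPM in the mutant group, overlapping, with a log2 fold change of -0.08 ± 0.06 (SE). Itga7, best known from muscle, had 155, 139 and 142 counts in WT and 97, 93 and 99 in S89G-DMP1. Every mutant library was below every WT library for Itga7, at 58.3 ± 5.87 against 39.9 ± 0.630 CPM (SD, n = 3 each), and the log2 fold change was -0.54 ± 0.11 (SE).

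The beta chains differed little. Itgb1, the common beta chain, read 839.4, 825.4 and 811.3 CPM in the WT group and 740.7, 701.1 and 800.7 CPM in the mutant group. The highest mutant library came close to the lowest WT library, and the log2 fold change was -0.14 ± 0.05 (SE). This call was lost in 7 of 12 alternative fits, among them DESeq2 and the fit without any 1 library other than S89G-DMP1 replicate 3, and the log2 fold change ranged from -0.20 to -0.10. Itgb8 read 280.9, 277.5 and 272.9 CPM in the WT group and 295.8, 270.0 and 265.8 CPM in the mutant group, with equal means and a log2 fold change of 0.00 ± 0.06 (SE). Itgb5 had 33, 58 and 42 counts in WT and 47, 55 and 70 in S89G-DMP1. Its groups overlapped at a log2 fold change of 0.42 ± 0.17 (SE), which was not called, although it was called without S89G-DMP1 replicate 1 (0.54) and without WT replicate 2 (0.63).

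Divided by gene length, Itga6, Itgav and Itga4 led the alpha chains of WT NSCs. Levels per length were taken as CPM per kb, here without TMM factors, with the length that the deposited astrocyte FPKM values imply for each gene. Itga6 was at 113 ± 3.36, Itgav at 103 ± 6.78 and Itga4 at 73.1 ± 0.632 (SD, n = 3), followed by Itga7 (14.5), Itga5 (10.2), Itga9 (7.84) and Itga8 (6.64). The ranges of Itga9 and Itga8 overlapped, so their order was not resolved, while those of the other neighbours were apart, by little for Itga6 over Itgav and for Itga5 over Itga9. With exon lengths of GENCODE M21 the first 3 kept this order (Itga6 28.1, Itgav 23.0, Itga4 19.2), but Itga5 (9.07) stood above Itga7 (7.21), and by the deposited TPM Itga6 (98.4 to 113) and Itgav (90.0 to 110) overlapped, as did Itga4 (34.6 to 81.8) and Itga7 (33.7 to 38.3). Among the beta chains, on the first scale, Itgb1 was at 409, Itgb8 at 57.9 and Itgb5 at 11.9.

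Of the summed level of the 7 alpha chains, Itga4 made up 22.3% ± 0.873 in WT NSCs and 9.24% ± 0.477 in S89G-DMP1 NSCs (SD, n = 3 each). The share of Itga6 was 34.5% against 42.9% and that of Itgav 31.3% against 38.7%, although the CPM of both overlapped between genotypes. Per length, the mutant NSCs had Itga4 at 23.1 ± 1.19, Itga6 at 107 ± 3.71 and Itgav at 96.6 ± 3.67 (SD, n = 3). Shares from the deposited TPM gave the same direction for Itga4, 15.8% against 9.17%, with a wide WT spread. In those TPM values Itga4 read 34.6, 81.8 and 43.8 in the 3 WT libraries, whose Itga4 counts were nearly equal. The ratio of Itgb1 to the summed alpha level was 1.24 ± 0.0340 in WT and 1.48 ± 0.110 in S89G-DMP1 NSCs, but 1.77 against 1.78 from the TPM, so its difference between genotypes depends on the measure of level.

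**Figure D2:**
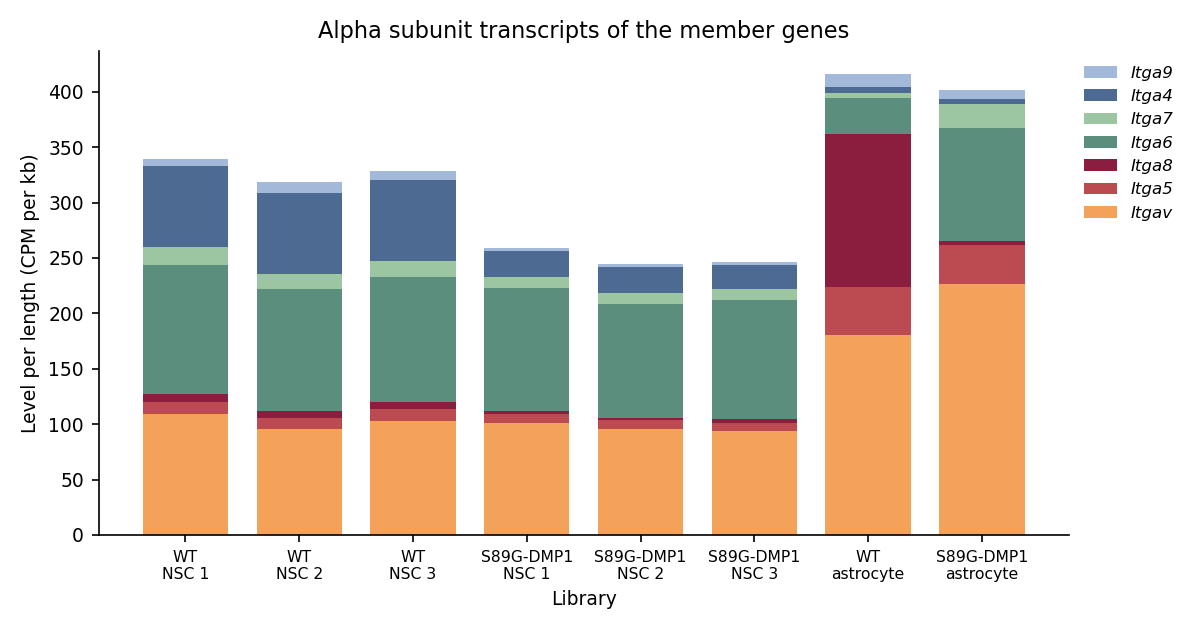
Level per length (CPM per kb) of the 7 alpha chains, stacked, in each of the 8 libraries. In the NSCs the Itga4 band shrinks from 22.3% to 9.24% of the stack, and in the astrocyte cultures the Itga8 band goes from 33.1% to 0.795% while Itga6 widens from 7.91% to 25.4%.

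The genes around the integrins were read from 6 lists of ligands, TGF-β latency proteins, adaptors, membrane partners and traffic genes that hold no member. Of their 95 tested genes in NSCs, 33 were called lower and 7 higher, beside 8.76% and 7.08% of all tested genes. Their median log2 fold change was -0.09 against 0.00 over all genes. The lists were also chosen with results of these data known, so their counts are no independent evidence of a direction. DESeq2 called 23 of the 40, gave 16 no call and gave 1 no adjusted p, and over all genes it called 742 of the 1773 that edgeR called.

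Laminin and basement membrane genes include the ligands of α6 and α7. Of 9 tested, edgeR called 6 lower and 0 higher, with a median log2 fold change of -0.46, and DESeq2 called 4 of the 6. Lama4, the laminin α4 chain of vessel walls, fell from 31.8 ± 3.02 to 15.0 ± 1.2 CPM (SD, n = 3 each), a log2 fold change of -1.08 ± 0.16 (SE, edgeR adjusted p = 4.0e-07). Hspg2, which encodes perlecan, fell by 0.61 ± 0.09 on the log2 scale (SE, edgeR adjusted p = 1.9e-07). Nid2, a linker of laminin and collagen IV, changed by -0.90 ± 0.25 and Lamb2, the β2 chain, by -0.51 ± 0.16 (log2 fold change and SE, edgeR adjusted p = 0.0069 and 0.023). DESeq2 called neither of the latter (adjusted p = 0.17 and 0.28). The Lamb2 call was also lost in edgeR without WT replicate 1 or 3 or S89G-DMP1 replicate 1 or 2, with adjusted p = 0.072 to 0.15. Lama5, the laminin α5 chain, had a mean of 255 CPM in WT NSCs and no call (log2 fold change -0.03 ± 0.06, SE).

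Of 15 tested RGD and other ligands, 7 were called lower and 2 higher. Spp1, or osteopontin, a ligand of α4, α9 and αv integrins, went from 51.5 ± 8.08 to 25.5 ± 3.87 CPM (SD, n = 3 each), a log2 fold change of -1.01 ± 0.13 (SE, edgeR adjusted p = 1.7e-08). Vcam1, the counter-receptor of α4β1, went the other way, from 3.99 ± 0.715 to 8.99 ± 1.79 CPM, with a log2 fold change of 1.15 ± 0.30 (SE, edgeR adjusted p = 0.0041). Dmp1 fell by 1.90 ± 0.38 on the log2 scale (edgeR adjusted p = 1.3e-04), and Ccn1, a matricellular ligand of αv and α6, by 0.90 ± 0.30 (adjusted p = 0.027). The Ccn1 call was lost in edgeR without WT replicate 2 or 3 or S89G-DMP1 replicate 1 or 2 (adjusted p = 0.057 to 0.15), and the Vcam1 call without S89G-DMP1 replicate 2 (edgeR adjusted p = 0.051). DESeq2 called 2 of these 9 ligand genes, not Vcam1 or Ccn1, and gave Dmp1 no adjusted p.

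The list of latent TGF-β genes, which also holds TGF-β receptors and Smad genes, gave 2 lower and 1 higher call of 9 tested. Tgfb1 and Tgfb3 did not have enough counts for a test. Tgfb2, a TGF-β ligand, dropped from 76.4 ± 7.34 to 36.1 ± 3.05 CPM (log2 fold change -1.08 ± 0.11, edgeR adjusted p = 4.5e-12), and Ltbp1, its latency binding partner, from 32.3 ± 2.65 to 16.3 ± 1.63 CPM (-0.99 ± 0.16, adjusted p = 1.9e-06). Lrrc32, which presents latent TGF-β on the cell surface, rose by 0.84 ± 0.30 on the log2 scale (edgeR adjusted p = 0.040). This call was lost in DESeq2, without the filter on low counts, and without WT replicate 1 or 2 or S89G-DMP1 replicate 1 or 3 (adjusted p = 0.054 to 0.36). Itgb8, the β chain of αvβ8, was at 277 CPM in both genotypes.

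On the inner side, 11 of 34 tested activators and adaptors were called lower and 0 higher, with a median log2 fold change of -0.05. Tns3, a tensin that joins β chains to actin, went from 151 ± 6.15 to 81.2 ± 3.86 CPM (log2 fold change -0.90 ± 0.08, edgeR adjusted p = 1.7e-14). Kank2, a talin-binding protein, changed by -1.11 ± 0.25, Tns1 by -0.56 ± 0.12 and Bcar1, the p130Cas scaffold, by -0.46 ± 0.11 (log2 fold change and SE, edgeR adjusted p = 6.5e-04, 5.9e-04 and 0.0018). Bcar1 was not called by DESeq2 (adjusted p = 0.074). Of the talin genes, Tln1 was called lower (337 to 284 CPM, log2 fold change -0.25 ± 0.06, edgeR adjusted p = 0.0010) and Tln2 had no call.

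Membrane partners gave 6 lower and 2 higher calls of 18 tested. Cd151, the tetraspanin bound to laminin receptors, fell by 0.50 ± 0.10 on the log2 scale, Cd81 by 0.43 ± 0.05, Lrp1 by 0.38 ± 0.05 and Ninj1 by 0.83 ± 0.16 (edgeR adjusted p = 8.0e-05, 2.5e-10, 7.8e-08 and 8.1e-05). Traffic genes gave 1 lower and 2 higher calls of 10. Rab4a, which serves fast integrin recycling, rose from 5.87 ± 0.473 to 14.1 ± 2.91 CPM (log2 fold change 1.25 ± 0.25, edgeR adjusted p = 1.1e-04). Rabgap1 (-0.24 ± 0.08) and Vps35 (0.19 ± 0.07) were called by edgeR but not by DESeq2 (adjusted p = 0.24 and 0.20). Both calls were also lost without WT replicate 1 or S89G-DMP1 replicate 1 or 2, that of Rabgap1 without WT replicate 2 or the filter on low counts, and that of Vps35 without WT replicate 3.

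**Figure D3:**
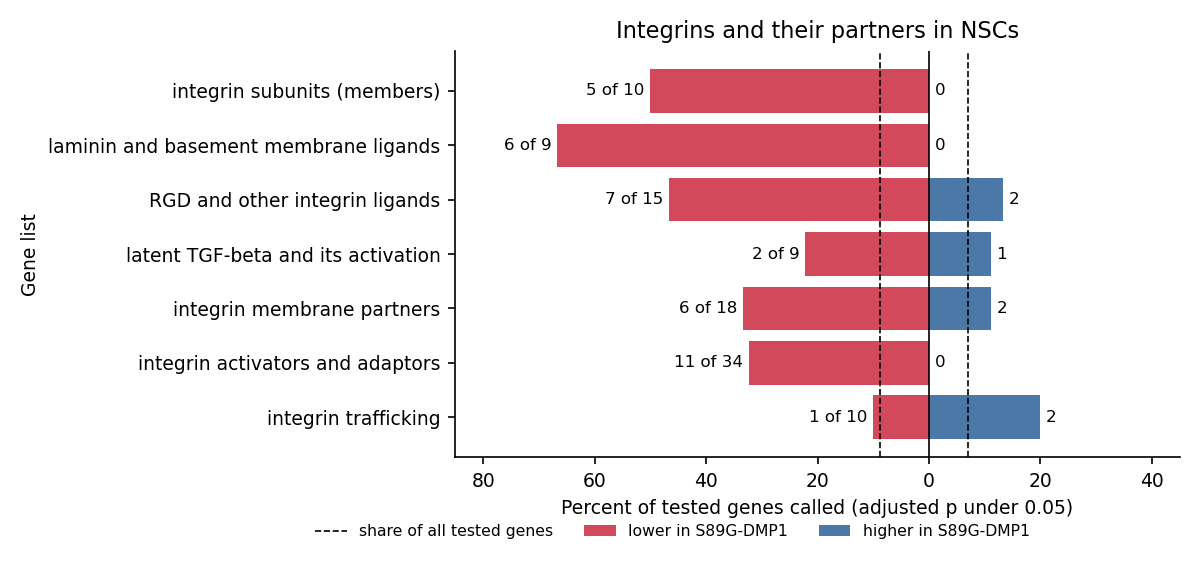
Percent of tested genes called lower (red) or higher (blue) in S89G-DMP1 NSCs for the 10 integrin genes and the 6 lists around them, with the number called beside each bar and dashed lines at 8.76% lower and 7.08% higher over all tested genes. Laminin and basement membrane genes have 6 of 9 called lower and traffic genes 1 of 10.

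Markers of cell types moved in the same NSC libraries. The summed CPM of fibroblast and meningeal markers was 186 to 201 in WT and 102 to 108 in S89G-DMP1, mostly from Thy1 (150 against 68.7 CPM), while Col1a2, Dcn and Lum were at 0 in all 6 libraries. Mural markers summed to 77.9 to 92.2 against 57.4 to 70.7 CPM, with Mcam the 1 of 2 tested genes called lower and the means of Acta2 and Rgs5 below 1 CPM. Oligodendrocyte progenitor markers overlapped in sum (2789 to 3017 against 2772 to 2930 CPM) but 3 of 6 tested, Pdgfra, Cspg4 and Lhfpl3, were called lower. Astrocyte markers were higher in sum (2377 to 2425 against 3121 to 3203 CPM), with 6 of 12 called higher, and progenitor markers lay at 4885 to 5167 against 5295 to 5329 CPM, with 1 called lower and 2 higher of 9. Neuron markers overlapped in sum (1180 to 1325 against 1212 to 1234 CPM), most of which was Map2, but Syt1, a synaptic vesicle gene and 1 of 5 tested, was called lower, from 61.1 to 7.58 CPM (log2 fold change -3.00 ± 0.17, SE). Microglia markers overlapped (13.4 to 16.3 against 10.0 to 13.9 CPM), and endothelial markers were at 4.19 to 9.65 against 8.93 to 17.2 CPM, with Flt1, the 1 gene tested, called higher by edgeR and given no adjusted p by DESeq2. The part of these shifts in the falls of Itga4, Itga8 and Itga9 was not tested.

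The astrocyte cultures had 1 library per genotype and so no replicate check. Of the members past 2-fold there, Itga8 was lower as in NSCs, and Itga7 was higher where it was lower in NSCs. Of the 10 integrin genes, 2 were at least 2-fold lower in S89G-DMP1 (Itga8 and Itgb5) and 3 at least 2-fold higher (Itgb8, Itga7 and Itga6), where 12.8% and 17.3% of 15680 counted genes were past those folds. Nothing is read from that count either. The log2 ratios were negative for 6 and positive for 4, with a median of -0.57 against 0.01 over all counted genes. Scaling by library size alone moved the median of all genes to 0.30 and the integrin ratios with it, and left both counts as they were.

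Itga8 and Itgb8 stood out at opposite ends. Itga8 had 4085 counts in WT against 88 in the mutant, or 323 and 6.11 CPM, which is 52.8-fold lower with a counting interval of 42.8 to 66.0 (95%, counting error only). The antisense gene E030013I19Rik, which shares 372 exon bases with Itga8, had 54 and 0 counts, and the library kit does not mark strand. Itgb8 had 110 and 3544 counts, or 8.69 and 246 CPM, which is 28.3-fold higher (23.4 to 34.6). Its level in the mutant culture was thus near that of NSCs on the CPM scale, though in a table made apart.

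The other chains differed less. Itgb5 was 3.17-fold lower (3.06 to 3.29), at 10893 and 3904 counts in WT and S89G-DMP1. Itga7 went from 271 to 1147 counts (3.72-fold higher, 3.26 to 4.26) and Itga6 from 1031 to 2974 counts (2.54-fold higher, 2.36 to 2.72). These laminin receptor chains were both higher in the mutant culture, whereas in NSCs neither was, a difference between cell types that was not tested.

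Itgb1 had 33724 and 23401 counts and was 1.64-fold lower (1.61 to 1.67). Itga5 had 2622 and 1995 counts, Itga4 271 and 208, and Itga9 312 and 210, with log2 ratios of -0.58, -0.56 and -0.75. Itgav was at 481 and 493 CPM (log2 ratio 0.03). All 5 of these were within 2-fold, as were their ratios under library size scaling.

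**Figure D4:**
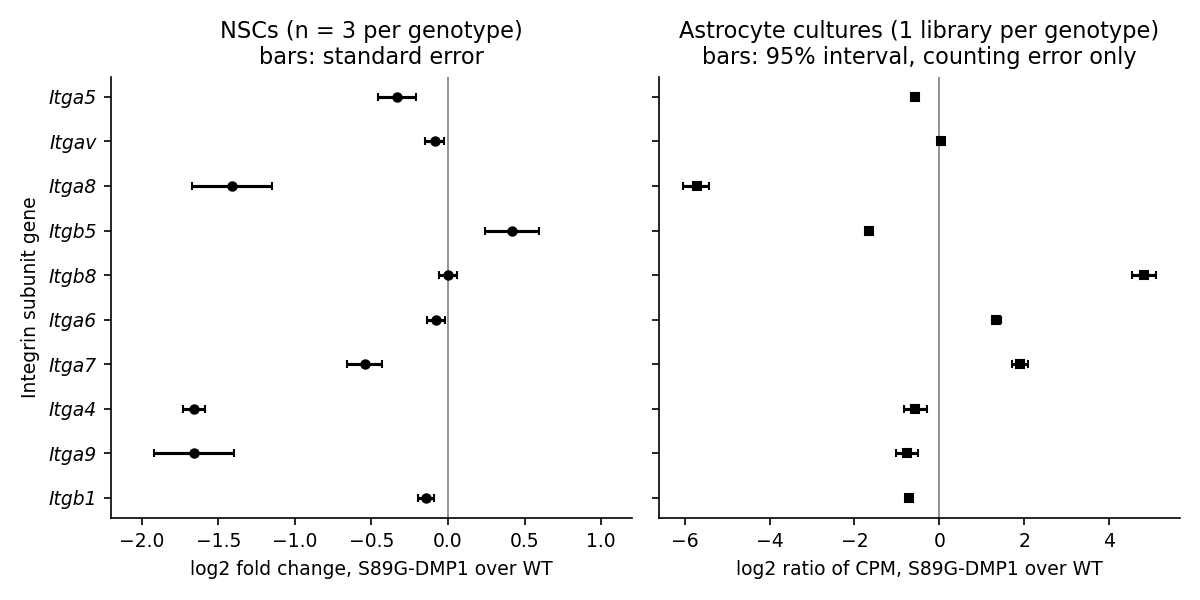
Difference of each integrin gene between S89G-DMP1 and WT on a log2 scale, in NSCs (left, fold change with SE, 3 libraries per genotype) and in astrocyte cultures (right, ratio of CPM with a 95% counting interval, 1 library per genotype). Itga8 lies at -1.41 and -5.69, Itga7 at -0.54 and 1.89, and Itgb8 at 0.00 and 4.80.

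Per length, Itgb1 led in both cultures, at 1191 on the same scale in WT and 889.5 in S89G-DMP1. In the WT culture Itgb5 (525), Itgav (181) and Itga8 (138) followed, and Itgb8 was at 1.64. The mutant culture had Itgav at 227, Itgb5 at 203, Itga6 at 102, Itgb8 at 56.8 and Itga8 at 3.19. With GENCODE M21 exon lengths Itgb5 (84.4) stood above Itgav (50.8) in the mutant culture, and Itga5 (31.1) above Itga6 (25.3). Between Itgb5 and Itgb8, the β partner of Itgav with the higher level was Itgb5 in both cultures and Itgb8 in NSCs. On the first scale, Itga8 made up 33.1% of the summed alpha level in WT and 0.795% in S89G-DMP1. Itgav made up 43.5% and 56.4%, and Itga6 7.91% and 25.4%. The ratio of Itgb1 to summed alpha was 2.86 and 2.21 on that scale. Itga5 made up 10.3% and 8.71% there, but 28.6% and 25.4% with GENCODE M21 exon lengths.

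The cultures differed as widely in markers of cell types. Beside the low Gfap and Aqp4 of the WT library, astrocyte markers summed to 569 and 2154 CPM. Of these, 11 of 14 were at least 2-fold higher in S89G-DMP1 and 1, S100b, at least 2-fold lower. Progenitor markers summed to 780 and 2388 CPM, with 8 of 9 at least 2-fold higher in S89G-DMP1. Fibroblast and meningeal markers summed to 8924 and 2450 CPM, with 8 of 12 at least 2-fold lower in S89G-DMP1, among them Tnxb (31753 and 86 counts) and Foxd1 (2878 and 26 counts). Endothelial markers summed to 1134 and 86.4 CPM, with 6 of 10 at least 2-fold lower in S89G-DMP1 and 1 higher. Mural markers summed to 2596 and 4108 CPM, of which Acta2 was 723 and 2468. Of 9 counted mural genes, 2 were at least 2-fold higher and 3 lower. The lower ones were Rgs5 (2431 and 39 counts), Myh11 (402 and 37) and Des (379 and 17). Oligodendrocyte progenitor markers summed to 234 and 324 CPM, with Pdgfra at 1755 and 100 counts and Olig1 at 4 and 2691. Microglia markers summed to 933 and 1343 CPM and neuron markers to 97.9 and 302. Over all counted genes 12.8% were at least 2-fold lower and 17.3% higher.  Genotype, sex and make-up of these cultures cannot be told apart, and their part in the ratios of Itga8, Itgb5, Itgb8, Itga6 and Itga7 was not tested.

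The neighbours of these integrins in the astrocyte cultures, 124 counted genes of the 6 lists, had 26 that were lower by 2-fold or more and 14 that were higher by as much. Over all 15680 counted genes the shares were 12.8% and 17.3%. The lists were chosen with results of these data known, so nothing is read from these counts. Npnt, or nephronectin, the ligand of the α8 chain, had 327 and 3303 counts (log2 ratio 3.14), the opposite direction to Itga8. Among basement membrane genes Lama1 (1094 and 20 counts, log2 ratio -5.82) and Lamc3 (2427 and 69, -5.28) were lowest and Lama5 (609 and 7346, 3.40) and Nid2 (740 and 3502, 2.05) highest. Of 24 counted RGD and other ligands, 8 were lower by 2-fold or more in the mutant culture and 5 higher, beside the same 12.8% and 17.3%. The lowest were Emilin1 (6108 and 681 counts, -3.35) and Ccn2 (27870 and 6376, -2.31). In NSCs Npnt had no call, at 48.0 and 50.4 CPM.

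Of the TGF-β genes, Lrrc32 (7092 and 163 counts, log2 ratio -5.61) and Ltbp2 (21718 and 1425, -4.11) were lowest, and Tgfb3 (666 and 2252, 1.57) and Tgfbr1 (711 and 1232, 0.61) highest. The adaptors Tns1 (31108 and 1697 counts, -4.38) and Parvb, or β-parvin (1021 and 234, -2.30), were lowest, and Parvg (13 and 162, 3.28) and Tln2 (1362 and 2271, 0.55) highest. Partners ranged from Lrp1 (-1.06) and Ninj1 (-0.94) to Cd9 (1.16) and Emp2 (1.17), and traffic genes from Chmp3 (-1.21) and Rab4a (-0.59) to Arf6 (0.37) and Rab11fip1 (1.41). Lrrc32 and Rab4a thus had opposite signs in NSCs and astrocyte cultures. They were not the only ones among genes called in NSCs. Nid2 (-0.90 and 2.05), Lama4 (-1.08 and 0.57) and Dmp1 (-1.90 and 4.78, with 2 counts in the WT culture) also did. These differences were not tested.

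Among the 16 other integrin subunit genes, Itga1 was the only one with enough counts for a test in NSCs, and it had no call (log2 fold change -0.25 ± 0.31, SE). In the astrocyte cultures 14 were counted, of which 4 were lower by 2-fold or more and 4 higher by as much. The shares of all counted genes past those folds were 12.8% and 17.3%. Itga11, a collagen receptor chain, had 716 and 40 counts in WT and S89G-DMP1 (log2 ratio -4.28), and Itga10, another collagen receptor chain, 151 and 76 (-1.15). Itga3, also a laminin receptor chain, had 892 and 7361 counts (2.86), the collagen receptor chain Itga1 557 and 1847 (1.54), and Itgb4, the β chain of epithelial α6β4, 40 and 120 (1.36). The leukocyte chains Itgam (1045 and 2050 counts) and Itgb2 (798 and 796) were present in both cultures, beside the microglia markers given above.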

How the data were processed

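Raw read counts per gene were used for all 8 libraries as deposited by the authors, 1 column per library and no column without a sample (0). Per the labels and the study's methods, low-quality and adapter reads were removed before alignment of the astrocyte libraries with TopHat2 2.0.9 on Bowtie2 2.0.6, and the submitters' processing notes name HISAT2, StringTie, featureCounts and build GRCm38 for the NSC libraries, without roles or versions. The authors also deposited FPKM of the astrocyte libraries, whose ratio to the counts gave 1 length per gene, and TPM of the NSC libraries, used as an alternative measure of level. How those TPM were made is not given in the sources used here.

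NSC counts were tested with edgeR 4.0.16 (filterByExpr, TMM, quasi-likelihood test, Benjamini-Hochberg over 11194 genes, no replicate term), with DESeq2 1.42.0 as an alternative. Astrocyte ratios were taken on TMM-scaled CPM (prior count 2) for genes that reached 10 counts in 1 or both libraries, with exact conditional binomial intervals. Fold intervals cover counting error only. All scripts were tested on simulated data.

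The 10 members, the gene lists and the naming rule were chosen with earlier results of these data known, so no member carries a p. Named in each list were the 4 called genes with the largest absolute log2 fold change in NSCs, and the 2 highest and 2 lowest astrocyte ratios among genes with at least 100 counts in the larger library. Other integrin subunits were named if called in NSCs, or if 2-fold apart in astrocytes at that count. Tln1, Syt1, Map2, Flt1, Thy1, Mcam, Pdgfra, Cspg4, Lhfpl3, Itgam and Itgb2 were named after their values were seen. Gene symbols were matched to 98.9% of NSC and 98.5% of astrocyte identifiers. Same-numbered NSC libraries did not deviate together (correlation of deviations -0.02 to 0.03), so the numbers were not taken as pairs.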

Additional observations from a re-analysis of the deposited data

Results flagged for a closer look

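Itga7 was lower in all 3 S89G-DMP1 NSC libraries than in all 3 WT NSC libraries, whereas its log2 ratio in the astrocyte cultures was 1.89, the opposite direction. The difference between the cell types was not tested, since each astrocyte genotype has 1 library and the tables were made with different tools. The exon overlap of Itga7 with Mettl7b on the other strand is 9 bases, and Mettl7b had 0 counts in all 8 libraries.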

How the results depend on the processing

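Under the other scalings, filters, the replicate block, DESeq2 and each library left out, 4 to 6 of the 10 integrin genes were called in NSCs, and Itga4, Itga7 and Itga9 were called in all 12 alternatives. With the replicate block, 6 integrin genes, 40 surrounding genes and 16 marker genes were called, against 5, 40 and 16 without it, and the added call was Itga5 (log2 fold change -0.33). Leaving out 1 library gave 31 to 39 calls among the surrounding genes and 16 to 19 among the markers. DESeq2 called 23 of the surrounding genes against 40, of which 1 of the others had no adjusted p, and the cause was not tested. The ratio of Itgb1 to summed alpha changed with the measure of level, and the cause was not tested. It was 1.77 in WT and 1.78 in S89G-DMP1 NSCs from the deposited TPM, and with GENCODE M21 exon lengths, chosen after seeing the data, 2.24 and 2.71 in NSCs and 4.44 and 3.61 in the WT and S89G-DMP1 astrocyte cultures. The counts of integrin genes past 2-fold in astrocytes stayed at 2 lower and 3 higher in all 4 alternatives. No called result changed sign. Itgb8, not called, had log2 fold changes from -0.05 to 0.03. By TPM its mean was lower in S89G-DMP1 (88.7 ± 7.77 in WT against 68.4 ± 30.5, SD), with S89G-DMP1 replicate 3 at 33.2. The mean of Itgav, also not called, was higher in S89G-DMP1 by TPM (97.5 ± 10.8 in WT against 105 ± 15.4, SD). Depth limits Itga8, Itga9 and Itgb5 in NSCs, which had at most 70 counts per library.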
